A study of Hydra vulgaris with 113 samples.

Results

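The motifs described here are the DNA motifs that carry the family tag of the TEA domain, the DNA-binding domain of TEAD transcription factors. The deposited motif score tables hold 332 motifs, and 3 of them carry that tag: TEAD2(TEA), TEAD4(TEA) and TEAD(TEA). Within the tables they were taken by the tag alone. The family itself was singled out with earlier results of these data known. All are vertebrate motifs, named in the tables by the experiment they were derived from: TEAD2(TEA) by Tead2 ChIP-seq in Py2T, a mouse breast tumour epithelial line; TEAD4(TEA) by Tead4 ChIP-seq in a source spelled Tropoblast; and TEAD(TEA) by PU.1 ChIP-seq in a source spelled Fibroblast. Each was scored over open chromatin of the freshwater polyp Hydra vulgaris, strain 105, in 71 ATAC-seq libraries.

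TEAD proteins are the DNA-binding partners of the coactivator YAP and its relative TAZ, called Yorkie in Drosophila, and so stand at the end of the Hippo pathway. In flies and mammals the Hippo kinases phosphorylate YAP and hold it out of the nucleus. When the cascade is quiet, YAP enters the nucleus and acts through TEAD on genes of growth, cell survival and the response to mechanical change. Hydra has homologues of YAP and TEAD. The Hydra protein that meets these motifs was not measured here, and motifs of one family can match the same peaks, so that the 3 scores are not independent of one another. A motif score describes the accessibility of peaks that hold a motif, not the binding of a factor.

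Each polyp had been bisected at mid-body, and tissue next to the wound (a tip) was taken 0, 3, 8 or 12 h later. Tips of lower pieces, which regrow a head, are called head tips, and tips of upper pieces, which regrow a foot, are called foot tips. Both come from the same mid-body tissue. Treated polyps were kept in 5 µM iCRT14, an inhibitor of TCF and β-catenin, the transcriptional arm of canonical Wnt signalling. Treatment began 2 h before the cut, so that the total exposure was 2, 5, 10 or 14 h at the 4 times. The other polyps were left untreated, and the labels name no solvent control. Each of the 16 groups held 3 to 5 libraries, described as biological replicates, each of about 15 pooled tips.

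Libraries held 4.73 to 42.3 M counts in peaks, with a median of 13.6 M (M, the prefix mega). Depth differed between times and treatments: group medians were 7.82 to 19.3 M in the iCRT14 groups. In untreated tips they were 37.6 M in head and 36.4 M in foot tips at 3 h, and 8.62 M in head and 9.53 M in foot tips at 12 h. Over all motifs and libraries the deposited scores ran from -11.8 to 13.1. In bulk tips a loss of cells of one type and a loss of accessibility per cell cannot be told apart, and this holds for every score below. The 95% intervals and adjusted p-values are from limma fitted to all motifs and libraries, with Benjamini-Hochberg adjustment over the 332 motifs, and a motif is called, and said to rise or fall, where its adjusted p is below 0.05.

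The scores of the 3 TEAD motifs were highest in freshly cut, untreated tips, and all 3 fell by 3 h on both sides. In foot tips the scores of 2 of the motifs regained part of that fall at 8 h. Head tips moved the same way for these 2, short of the threshold in the fit to all libraries. Whether the step from 3 to 8 h differed between the sides was not tested. In untreated head tips TEAD2(TEA) scored 3.10, 3.53, 2.90, 2.76 and 3.86 at 0 h, -0.895, -1.59 and -2.49 at 3 h, -1.0, -0.208, -1.52, -0.505 and -0.508 at 8 h, and -1.70, -1.75, -2.47, -2.07 and -2.22 at 12 h. In untreated foot tips it scored 4.42, 4.98, 4.44, 4.76 and 5.94 at 0 h, -0.859, -2.16 and -2.53 at 3 h, 1.35, 1.60, 1.28, 1.21 and 1.12 at 8 h, and 0.242, -0.726, 0.293, -0.100 and 0.104 at 12 h. On either side, every later library lay below every library at 0 h.

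**Figure D1:**
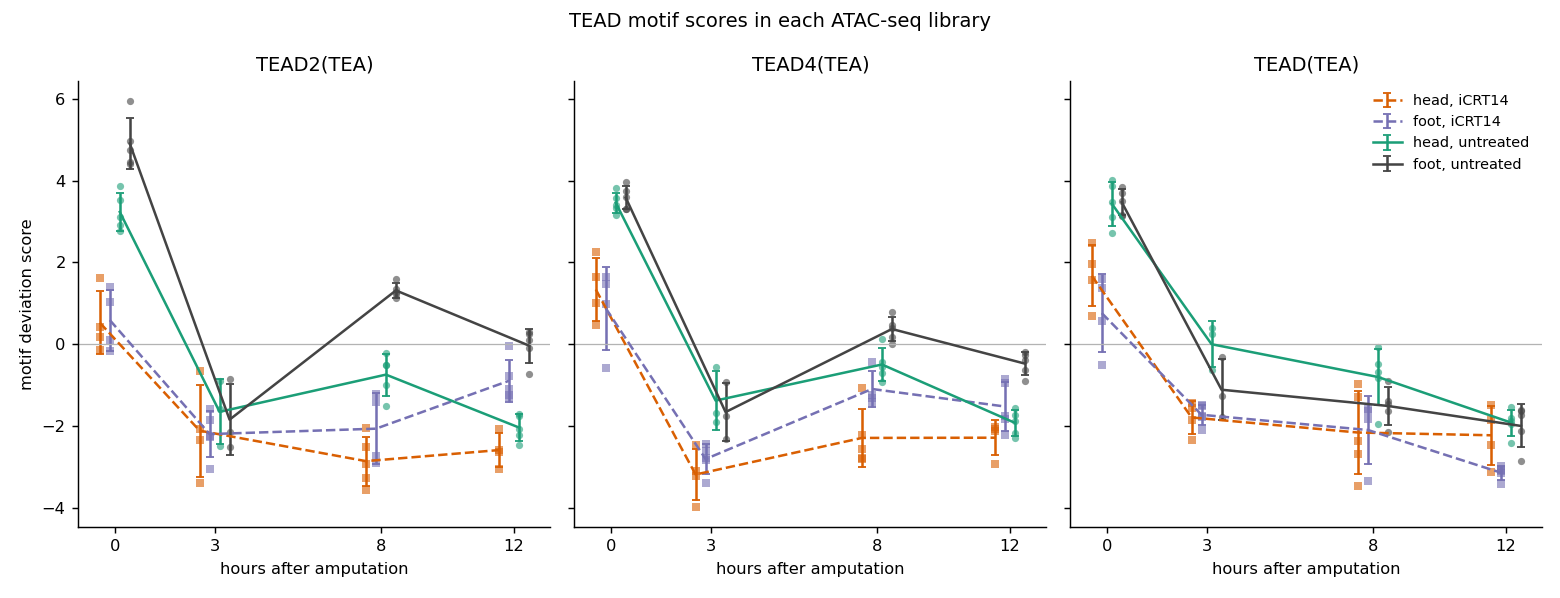
Motif deviation score (y axis, no unit) of TEAD2(TEA), TEAD4(TEA) and TEAD(TEA) against hours after amputation (x axis). Points are libraries, lines join group means and bars are 1 SD (n = 3 to 5), with groups set slightly apart at each time. The untreated 0 h libraries stand highest in all 3 panels, and of the 3 motifs only TEAD2(TEA) has untreated head and foot libraries that do not overlap at 0 h.

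By 3 h TEAD2(TEA) had fallen on both sides. The difference at 3 h minus 0 h was -4.89 in head tips (95% interval -5.80 to -3.98, limma adjusted p = 5.29e-14) and -6.76 in foot tips (interval -7.66 to -5.85, limma adjusted p = 6.14e-20). Of the 332 motifs it had the lowest difference on each side. The median over all motifs was 0.114 in head tips and 0.355 in foot tips. With log10 depth as a covariate the TEAD2(TEA) differences were -4.72 in head and -6.51 in foot tips.

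TEAD4(TEA) fell by 3 h as well. In untreated head tips it scored 3.56, 3.17, 3.32, 3.82 and 3.4 at 0 h, -0.561, -1.69 and -1.90 at 3 h, 0.133, -0.718, -0.427, -0.932 and -0.552 at 8 h, and -1.56, -1.72, -2.18, -2.30 and -1.88 at 12 h. The untreated foot libraries gave 3.60, 3.74, 3.31, 3.3 and 3.96 at 0 h, -0.920, -1.76 and -2.31 at 3 h, 0.178, 0.473, 0.00616, 0.789 and 0.399 at 8 h, and -0.279, -0.383, -0.628, -0.899 and -0.204 at 12 h. Head and foot libraries overlapped at 0 h, unlike those of TEAD2(TEA). By 3 h TEAD4(TEA) differed by -4.84 in head and by -5.25 in foot tips (limma adjusted p = 4.85e-16 in head and 6.52e-18 in foot tips), the second and the fifth lowest differences of all motifs.

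TEAD(TEA), the motif derived from PU.1 ChIP-seq, began at a like height and showed no rise past the threshold afterwards. In untreated head tips it scored 3.87, 2.72, 3.10, 3.49 and 4.01 at 0 h, 0.235, 0.396 and -0.640 at 3 h, -0.822, -0.681, -0.499, -1.94 and -0.0799 at 8 h, and -1.55, -1.80, -1.96, -2.42 and -1.87 at 12 h. In untreated foot tips it scored 3.70, 3.17, 3.51, 3.13 and 3.85 at 0 h, -0.314, -1.26 and -1.77 at 3 h, -0.901, -1.46, -1.4, -1.64 and -2.16 at 8 h, and -2.12, -1.65, -1.62, -2.87 and -1.75 at 12 h. All later libraries lay below those of 0 h. Its difference by 3 h was -3.44 in head and -4.59 in foot tips (limma adjusted p = 1.44e-09 in head and 1.26e-13 in foot tips). At 12 h in foot tips its difference from 0 h, -5.47, was the lowest of all motifs.

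All 3 motifs fell from 0 h at 3, 8 and 12 h on both sides, untreated. Of all motifs, 25.3%, 26.2% and 33.1% were called lower than at 0 h in head tips at 3, 8 and 12 h, and 28.9%, 21.7% and 27.1% in foot tips. At 8 h the 3 differences from 0 h lay between -4.24 and -3.96 in head tips and between -4.99 and -3.21 in foot tips. At 12 h they lay between -5.38 and -5.27 in head tips and between -5.47 and -4.06 in foot tips. Each of these differences ranked among the 16 lowest of the 332 motifs.

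**Figure D2:**
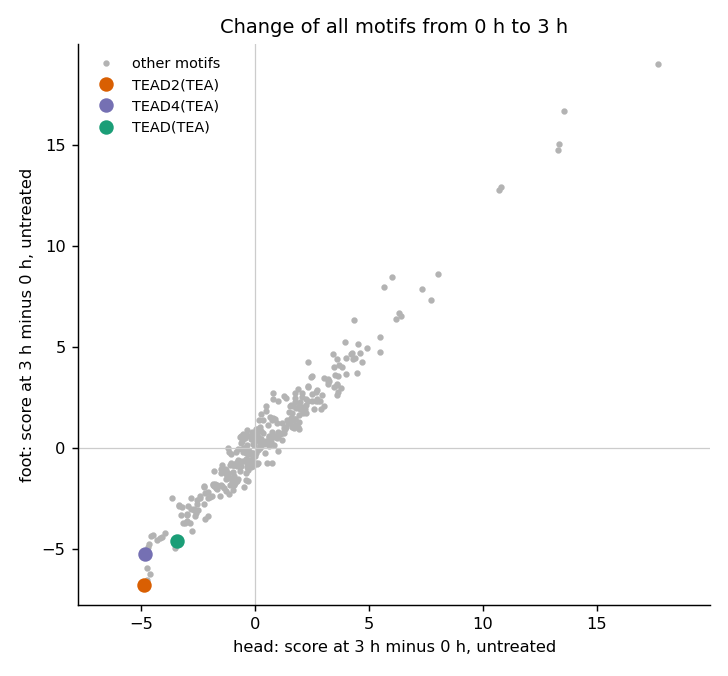
Difference in motif score at 3 h minus 0 h in untreated head tips (x axis) and in untreated foot tips (y axis), 1 point for each of the 332 motifs. The TEAD motifs sit at the low end of both axes, with TEAD2(TEA) the lowest on each at -4.89 in head and -6.76 in foot tips.

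From 3 to 8 h head tips gave no call for a TEAD motif, where 51.8% of all motifs were called in either direction. The head differences at 8 h minus 3 h were 0.911 for TEAD2(TEA), 0.883 for TEAD4(TEA) and -0.802 for TEAD(TEA), with limma adjusted p of 0.0829, 0.0545 and 0.124. The TEAD2(TEA) step passed without head replicate 1 of 3 h, at 1.29 (adjusted p = 0.0333), and without head replicate 3 of 8 h, at 1.10 (adjusted p = 0.0440). For TEAD4(TEA) it passed without head replicate 1 of 3 h, at 1.29 (adjusted p = 0.0141), and without head replicate 4 of 8 h, at 0.991 (adjusted p = 0.0417). In the second deposited score table, which holds the untreated libraries alone, the step passed for both, at 1.38 and 1.57. With depth as a covariate the TEAD(TEA) difference was -1.20 (adjusted p = 0.0438).

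In foot tips 2 of the 3 motifs rose in that step. TEAD2(TEA) rose by 3.16 (interval 2.25 to 4.07, limma adjusted p = 2.24e-08) and TEAD4(TEA) by 2.03 (interval 1.24 to 2.82, adjusted p = 1.15e-05), and every 8 h library of these 2 motifs lay above every 3 h library. TEAD(TEA) differed by -0.397 (interval -1.29 to 0.500, adjusted p = 0.434), with overlapping libraries. In this step 29.2% of all motifs rose. The 8 h foot libraries of TEAD2(TEA) remained 3.60 below those of 0 h.

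From 8 to 12 h all 3 motifs fell in head tips, where 19.3% of all motifs fell. The differences were -1.29 for TEAD2(TEA), -1.43 for TEAD4(TEA) and -1.12 for TEAD(TEA), with limma adjusted p of 0.00649, 0.000642 and 0.0182. In the untreated score table those of TEAD2(TEA) and TEAD4(TEA) were -0.389 and -0.763 and did not pass (adjusted p = 0.381 and 0.0704). The TEAD(TEA) call ended without head replicate 5 of 8 h, at -0.934 (adjusted p = 0.0603), or without head replicate 4 of 12 h, at -0.991 (adjusted p = 0.0522).

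In foot tips 2 of the 3 motifs fell from 8 to 12 h, against 16.6% of all motifs. TEAD2(TEA) fell by 1.35 (limma adjusted p = 0.00550) and TEAD4(TEA) by 0.848 (adjusted p = 0.0473), while TEAD(TEA) differed by -0.489 (adjusted p = 0.358). The TEAD4(TEA) call ended on leaving out any 1 of foot replicates 1, 2, 4 and 5 of 8 h or 2, 3 and 4 of 12 h, where the differences ran from -0.895 to -0.742. It also ended with depth as a covariate, at -0.893 (adjusted p = 0.0746), and with scores scaled per library, at -0.804 (adjusted p = 0.114).

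Head and foot tips differed in TEAD2(TEA) before any regeneration, with the head libraries lower. At 0 h the head libraries had 2.76 to 3.86 and the foot libraries 4.42 to 5.94, with no overlap. The head minus foot difference was -1.68 (interval -2.46 to -0.889, limma adjusted p = 0.00341), the sixth lowest of all motifs. At this time 1.51% of all motifs were called lower in head tips, and TEAD2(TEA) was among them, with TEAD4(TEA) and TEAD(TEA) not called. These differed by -0.127 and -0.0343, with intervals of -0.811 to 0.558 and -0.811 to 0.742.

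At 3 h no TEAD motif was called between the sides, where 4.52% of all motifs were in either direction. TEAD2(TEA) averaged -1.66 ± 0.798 in head and -1.85 ± 0.876 in foot tips (SD, n = 3 each), a difference of 0.191 with an interval of -0.825 to 1.21. TEAD(TEA) averaged -0.00313 ± 0.557 in head and -1.12 ± 0.741 in foot tips (SD, n = 3 each), a difference of 1.11 (limma adjusted p = 0.219).

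At 8 h TEAD2(TEA) was again lower in head tips, at -0.747 ± 0.515, than in foot tips, at 1.31 ± 0.182 (SD, n = 5 each). The difference was -2.06 (interval -2.85 to -1.27, limma adjusted p = 1.71e-05), and no head library reached the foot libraries. TEAD4(TEA) differed by -0.868 (adjusted p = 0.0260), with overlapping libraries. TEAD(TEA) differed by 0.708 (adjusted p = 0.111), which passed only without head replicate 4, at 0.993 (adjusted p = 0.0301). At this time 31.6% of all motifs were called lower in head tips, 2 of the 3 TEAD motifs among them. The TEAD4(TEA) call ended without head replicate 4, at -0.760 (adjusted p = 0.0678), or without foot replicate 4, at -0.763 (adjusted p = 0.0703), and with scores scaled per library, at -0.856 (adjusted p = 0.0627).

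By 12 h TEAD2(TEA) averaged -2.04 ± 0.323 in head and -0.0377 ± 0.414 in foot tips (SD, n = 5 each), and TEAD4(TEA) averaged -1.93 ± 0.309 and -0.479 ± 0.285 in head and foot tips. Both were lower in head tips with no overlap, by -2.0 and -1.45 (limma adjusted p = 3.66e-05 and 0.000465). TEAD(TEA) differed by 0.0825 (interval -0.694 to 0.859). At 12 h 23.5% of all motifs were called lower in head tips. The TEAD2(TEA) difference was -1.08 in the untreated score table (adjusted p = 0.00672).

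**Figure D3:**
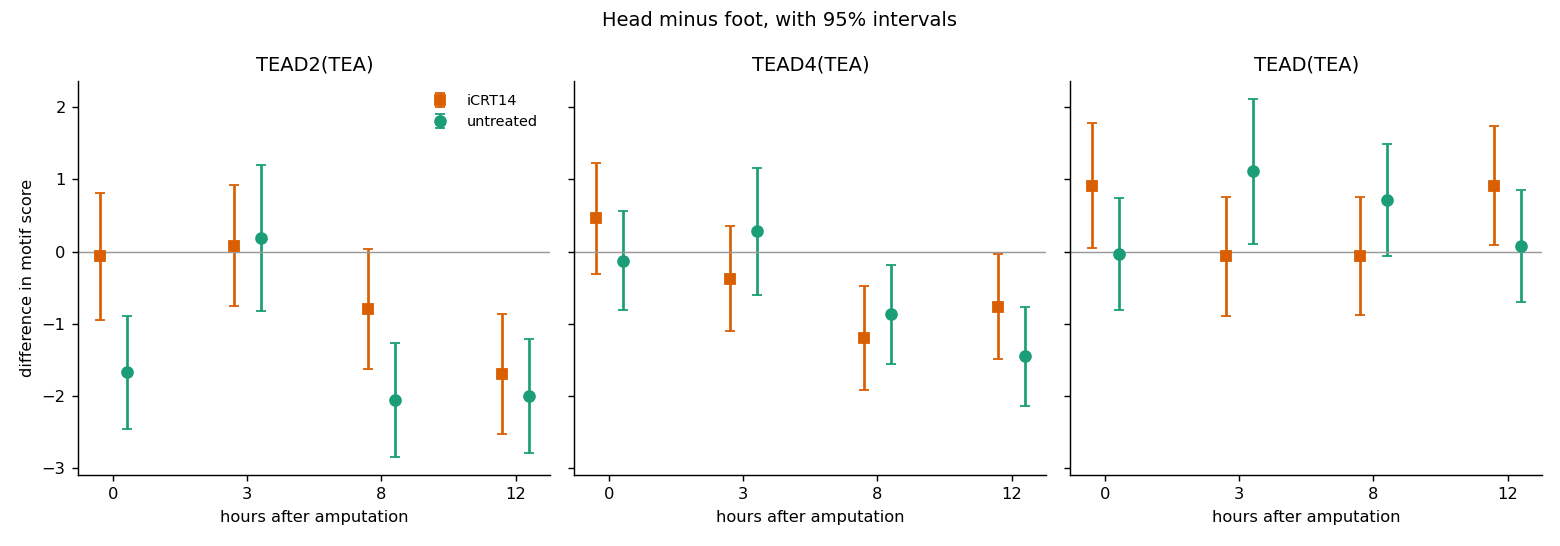
Difference in motif score, head minus foot (y axis), against hours after amputation (x axis) for each TEAD motif, in iCRT14 and in untreated tips. Points are fitted differences and bars their 95% intervals. The untreated intervals of TEAD2(TEA) lie below 0 at 0, 8 and 12 h, while those of TEAD(TEA) lie at or across 0 at those times.

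The 3 motifs were compared directly in their head minus foot difference by taking, in each library, the score of one motif minus that of another and permuting the libraries between sides (exact permutation test, two-sided, 24 tests over 3 motif pairs, 4 times and both treatments). These tests were added after the scores had been seen. Whether the scores of different motifs share a scale is not given in the sources used here. Where 2 motifs moved the same way, a difference in scale cannot be told apart from a difference in response. Of the 24, 8 passed after adjustment over the 24. At 8 h untreated, the score of TEAD2(TEA) minus that of TEAD(TEA) averaged 0.0578 in head and 2.83 in foot tips, a difference of -2.77 (exact permutation p = 0.00794, adjusted p = 0.0381, n = 5 each). For TEAD4(TEA) minus TEAD(TEA) that difference was -1.58, with the same p and adjusted p from the exact permutation test. With 5 libraries a side, 0.00794 is the smallest p the test can give, and with 3 a side, as at 3 h untreated, it cannot go below 0.10. The test exchanges libraries freely between the sides, although at 0 and 12 h untreated libraries of the same number deviated together.

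At 0 h untreated, the head minus foot difference of TEAD2(TEA) was lower than that of TEAD4(TEA) by -1.55 (exact permutation p = 0.00794, adjusted p = 0.0381) and lower than that of TEAD(TEA) by -1.64 (exact permutation p = 0.0159, adjusted p = 0.0476). TEAD4(TEA) and TEAD(TEA) differed in it by -0.0924 (exact permutation p = 0.706). At 12 h, TEAD2(TEA) and TEAD4(TEA) each differed from TEAD(TEA), by -2.61 and -1.68 in iCRT14 and by -2.09 and -1.53 in untreated tips (exact permutation, adjusted p = 0.0476 in iCRT14 and 0.0381 untreated). With exchange within same-numbered pairs, the 4 untreated differences that passed at 0 and 12 h each had p = 0.0625 (exact permutation, 5 pairs), the smallest 5 pairs can give, with the score difference lower in head tips in 5 of 5 pairs.

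Polyps in iCRT14 had lower TEAD motif scores already at 0 h, after 2 h in the inhibitor and with no time to regenerate. In iCRT14 head tips TEAD2(TEA) scored 1.63, 0.429, 0.177 and -0.142 at 0 h, and in iCRT14 foot tips 1.02, 1.4, -0.180 and 0.108. Every one of these lay below every untreated library of its side. The iCRT14 minus untreated difference was -2.71 in head tips (interval -3.54 to -1.88, limma adjusted p = 1.51e-07) and -4.32 in foot tips (interval -5.16 to -3.49, adjusted p = 1.49e-12), the sixth lowest of all motifs.

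TEAD4(TEA) scored 2.24, 1.64, 0.456 and 1.01 in iCRT14 head tips at 0 h and 1.64, 1.47, -0.595 and 0.981 in iCRT14 foot tips. TEAD(TEA) scored 2.47, 1.95, 0.695 and 1.57 in iCRT14 head tips and 0.575, 1.60, -0.522 and 1.38 in iCRT14 foot tips. No iCRT14 library of either motif reached an untreated one at this time. The differences from untreated tips were -2.12 for TEAD4(TEA) and -1.77 for TEAD(TEA) in head tips, and -2.71 for each in foot tips, with limma adjusted p of at most 0.000233. All 3 motifs were thus called on both sides at 0 h, where 27.7% of all motifs were called lower in head and 24.1% in foot tips. Median depth at 0 h was 19.3 M counts in iCRT14 and 26.4 M in untreated head tips, and 15.8 M in iCRT14 and 25.5 M in untreated foot tips. With depth as a covariate the TEAD2(TEA) differences were -2.94 in head and -4.63 in foot tips.

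At 3 h TEAD2(TEA) did not differ past the threshold on either side. In iCRT14 head tips it scored -0.665, -2.34, -3.39 and -2.08, a difference from untreated of -0.461 (interval -1.41 to 0.489, limma adjusted p = 0.475). In iCRT14 foot tips it scored -1.59, -2.26, -1.85, -2.27 and -3.05, a difference of -0.354 (interval -1.26 to 0.555, adjusted p = 0.563). The libraries of both treatments overlapped on each side. Over all motifs, the scores of iCRT14 foot replicate 1 of 3 h varied less than those of any other library. Their median absolute deviation was 0.495, against a median of 0.928 in its group.

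TEAD4(TEA) did fall in iCRT14 at 3 h, with libraries of -3.97, -3.22, -3.10 and -2.47 in iCRT14 head tips and of -2.78, -2.84, -2.62, -2.44 and -3.39 in iCRT14 foot tips, all below the untreated ones. It differed from untreated by -1.81 in head (limma adjusted p = 0.000343) and by -1.15 in foot tips (adjusted p = 0.0165). TEAD(TEA) differed by -1.79 in head tips (adjusted p = 0.00168) and by -0.613 in foot tips (adjusted p = 0.290). Of all motifs 23.8% were called lower in iCRT14 in head and 20.8% in foot tips. The TEAD4(TEA) foot call ended without untreated foot replicate 1, at -0.778 (adjusted p = 0.183), and with depth as a covariate, at -1.26 (adjusted p = 0.0898). Median depth at 3 h was 10.7 M counts in iCRT14 and 36.4 M in untreated foot tips.

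At 8 h TEAD2(TEA) scored -3.27, -3.56, -2.93, -2.51 and -2.05 in iCRT14 head tips and -2.73, -2.91, -1.21 and -1.43 in iCRT14 foot tips, below every untreated library of the same side. The differences from untreated were -2.12 in head tips (interval -2.90 to -1.33, limma adjusted p = 9.82e-06) and -3.38 in foot tips (interval -4.22 to -2.55, adjusted p = 8.98e-10), the sixth lowest of all motifs. TEAD4(TEA) differed by -1.80 in head and by -1.47 in foot tips (adjusted p = 1.51e-05 in head and 0.000517 in foot tips), also without overlap. TEAD(TEA) differed by -1.36 in head tips (adjusted p = 0.00278) and by -0.589 in foot tips (adjusted p = 0.220), with overlapping libraries. All 3 motifs were called in head tips, against 23.5% of all motifs called lower, and 2 in foot tips, against 22.3%. The TEAD(TEA) head call ended in a fit of its 2 groups alone (adjusted p = 0.0780), and scaling scores per library brought its foot difference to -1.18 (adjusted p = 0.0204).

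At 12 h no TEAD motif was called in head tips, where 38.3% of all motifs were in either direction. TEAD2(TEA) averaged -2.59 ± 0.408 in iCRT14 (n = 4) and -2.04 ± 0.323 in untreated head tips (SD, n = 5), a difference of -0.551 with an interval of -1.39 to 0.283. In foot tips, with 15.1% of all motifs lower in iCRT14, 2 of the 3 were lower in iCRT14. TEAD4(TEA) differed by -1.05 (limma adjusted p = 0.0119) and TEAD(TEA) by -1.14 (adjusted p = 0.0150), the second with no overlap. TEAD2(TEA) scored -1.30, -0.793, -1.25, -0.0395 and -1.10 in iCRT14 foot tips, and its difference of -0.860 (interval -1.65 to -0.0732) had an adjusted p of 0.0817. That value passed without untreated foot replicate 2, at -1.03 (adjusted p = 0.0467), without iCRT14 foot replicate 4, at -1.07 (adjusted p = 0.0341), with scores scaled per library, at -1.18 (adjusted p = 0.0161), and in a fit of the 2 groups alone, at the same -0.860 (adjusted p = 0.0490). The TEAD4(TEA) call ended without iCRT14 foot replicate 5, at -0.874 (adjusted p = 0.0549).

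**Figure D4:**
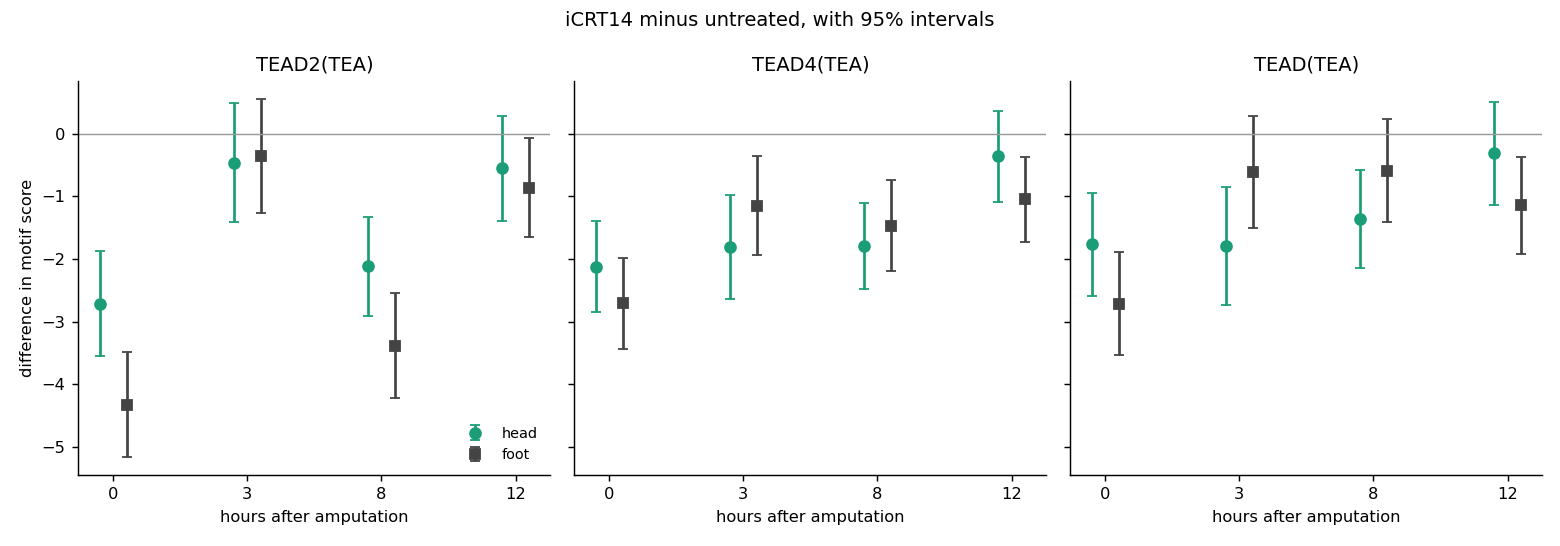
Difference in motif score, iCRT14 minus untreated (y axis), against hours after amputation (x axis) for each TEAD motif, in head and in foot tips. Points are fitted differences and bars their 95% intervals. TEAD2(TEA) stands at -4.32 and -3.38 in foot tips at 0 and 8 h, and near 0 at 3 h.

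The iCRT14 differences of the motifs were compared with one another in the same way as those of head and foot. The same limit of scale applies. Of 24 exact permutation tests, none passed after adjustment over the 24, and 6, all in foot tips, had an unadjusted p below 0.05. Each of the 6 stood at the smallest p its group sizes allow, 0.0159 with 4 and 5 libraries and 0.0357 with 5 and 3, so that not passing does not show that the motifs responded alike. At 8 h in foot tips, the iCRT14 difference of TEAD2(TEA) was lower than that of TEAD(TEA) by -2.79 and than that of TEAD4(TEA) by -1.91, and at 0 h by -1.61 than that of either. At 3 h in foot tips TEAD2(TEA) minus TEAD4(TEA) gave 0.795 and TEAD4(TEA) minus TEAD(TEA) gave -0.536.

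The time courses within iCRT14 began lower. All 3 motifs fell from 0 h at 3, 8 and 12 h on both sides in iCRT14, where 27.1%, 28.6% and 28.0% of all motifs fell in head tips and 28.3%, 27.7% and 27.4% in foot tips. The TEAD2(TEA) differences from 0 h were -2.64, -3.39 and -3.12 in head tips at 3, 8 and 12 h, and -2.79, -2.66 and -1.48 in foot tips. In foot tips the TEAD2(TEA) libraries of 12 h and the TEAD4(TEA) libraries of 8 h overlapped those of 0 h.

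In iCRT14 head tips no TEAD motif was called from 3 to 8 h or from 8 to 12 h, with 22.9% and 8.13% of all motifs called in either direction. TEAD4(TEA) differed by 0.895 from 3 to 8 h (limma adjusted p = 0.0622), and passed without head replicate 4 of 3 h, at 1.14 (adjusted p = 0.0365), or head replicate 1 of 8 h, at 1.02 (adjusted p = 0.0460).

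From 3 to 8 h in iCRT14 foot tips TEAD4(TEA) rose by 1.71 (interval 0.988 to 2.44, limma adjusted p = 0.000157), with 8 h libraries of -1.24, -1.32, -0.430 and -1.41 that all lay above those of 3 h. TEAD2(TEA) differed in the same step by 0.133 (interval -0.702 to 0.967) and TEAD(TEA) by -0.373 (adjusted p = 0.503). In this step 21.1% of all motifs rose. From 8 to 12 h TEAD2(TEA) rose by 1.17 in iCRT14 foot tips (interval 0.338 to 2.01, adjusted p = 0.0316), with 9.64% of all motifs rising. That call ended on leaving out foot replicate 1 or 2 of 8 h, or foot replicate 2 or 4 of 12 h, where the rises were 0.951, 0.894, 1.15 and 0.958. TEAD(TEA) differed by -1.04 in that step (adjusted p = 0.0573), and passed without foot replicate 2 of 8 h, at -1.46 (adjusted p = 0.0103).

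Between the sides within iCRT14, TEAD2(TEA) was called at 12 h and at none of the other times. Its head libraries scored -2.07, -2.64, -2.60 and -3.06, all below the foot libraries given above, and the head minus foot difference was -1.70 (interval -2.53 to -0.861, limma adjusted p = 0.000832), with 19.3% of all motifs called lower in head tips. At 0 h it differed by -0.0647 (interval -0.944 to 0.815), at 3 h by 0.0839 (interval -0.750 to 0.918) and at 8 h by -0.794 (interval -1.63 to 0.0402). No TEAD motif was called at 0 or 3 h, with 3.92% and 0.00% of all motifs called in either direction. At 8 h TEAD4(TEA) was lower in head tips, at -1.20 (adjusted p = 0.0181), as were 7.53% of all motifs. That call ended without head replicate 1 (-1.07), head replicate 2 (-1.13) or foot replicate 3 (-0.974), with adjusted p of 0.0564, 0.0563 and 0.101, and in a fit of the 2 groups alone (adjusted p = 0.0773). At 12 h TEAD4(TEA) differed by -0.763 (adjusted p = 0.0842) and TEAD(TEA) by 0.916 (adjusted p = 0.0663). The first passed without foot replicate 5, at -0.938 (adjusted p = 0.0431), and the second without head replicate 1, at 1.21 (adjusted p = 0.0222), with depth as a covariate, at 0.998 (adjusted p = 0.0452), and with scaled scores, at 1.38 (adjusted p = 0.0103).

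The size of the TEAD2(TEA) fall was tested between treatments, and it was smaller in iCRT14 by 3 and 12 h. Its change by 3 h was less negative in iCRT14 than in untreated tips, by 2.25 in head (interval 0.985 to 3.51, limma adjusted p = 0.00527) and by 3.97 in foot tips (interval 2.73 to 5.2, adjusted p = 1.79e-06), with 16.6% and 12.3% of all motifs called in that direction. For the change by 12 h the difference was 2.16 in head and 3.46 in foot tips (adjusted p = 0.00192 in head and 2.8e-06 in foot tips), with 27.4% and 24.1% called in that direction. For the change by 8 h it was 0.593 in head and 0.939 in foot tips and did not pass (adjusted p = 0.425 in head and 0.198 in foot tips), with 47.6% of all motifs called in either direction in head tips and 24.7% called higher in foot tips. These tests share the 0 h groups, in which the iCRT14 scores were already lower. With depth as a covariate the head difference at 3 h was 1.71 (adjusted p = 0.0594).

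None of the 3 motifs was called in a test of whether the iCRT14 effect differed between head and foot, with 0.00%, 0.904%, 8.43% and 8.13% of all motifs called in either direction at 0, 3, 8 and 12 h. For TEAD2(TEA) these differences were 1.61, -0.107, 1.27 and 0.308 (limma adjusted p = 0.548, 0.955, 0.144 and 0.815, and unadjusted p below 0.05 at 0 and 8 h). The change of TEAD2(TEA) from 0 h also did not differ between the sides past the threshold. The head minus foot difference in the untreated change by 3 h, 1.87, was the highest of all motifs (interval 0.582 to 3.15, adjusted p = 0.365), with 0.00% called. In either direction, 0.00%, 1.20% and 8.43% of all motifs were called for this side difference in iCRT14 at 3, 8 and 12 h, and 32.2% untreated at 8 h, no TEAD motif among them. In iCRT14 at 8 h TEAD4(TEA) was at -1.66 (adjusted p = 0.0922) and passed without head replicate 3 of 0 h, at -1.95, or head replicate 5 of 8 h, at -1.96. Untreated at 12 h, 13.6% were called lower, with TEAD4(TEA) among them at -1.32 (adjusted p = 0.0369), a call that ended in the untreated score table, at -0.123, and on leaving out any 1 of 9 libraries.

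Over the 16 groups the mean TEAD2(TEA) score ran from -2.86 in iCRT14 head tips at 8 h to 4.91 in untreated foot tips at 0 h. This range of 7.77 ranked 29th among the 332 motifs, against a median range of 3.98. The pooled SD within groups was 0.622, near the median over all motifs of 0.639. TEAD4(TEA) and TEAD(TEA) spanned 6.77 and 6.62. Going up the order of TEAD2(TEA) means, 2 of the 15 steps between neighbours passed a limma test, in an order that was itself set by these means: untreated head tips at 0 h stood 1.92 above untreated foot tips at 8 h, and untreated foot tips at 0 h stood 1.68 above untreated head tips at 0 h (limma, p adjusted over the 15 steps = 0.000119 and 0.000539). The other 13 steps were of 0.0279 to 0.760 and did not pass.

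Across the 16 group means Pearson's r was 0.951 between TEAD2(TEA) and TEAD4(TEA), 0.880 between TEAD4(TEA) and TEAD(TEA), and 0.823 between TEAD2(TEA) and TEAD(TEA). These values describe motifs scored on the same libraries, and motifs of one family can match the same peaks. The 5 motifs with the highest r to TEAD2(TEA) were p53(p53) from mES cMyc ChIP-seq at 0.955, TEAD4(TEA), REST-NRSF(Zf) at 0.908, Rfx5(HTH) at 0.892 and CRX(Homeobox) at 0.868. In mammals p53 is a tumour suppressor, REST represses neuronal genes, RFX5 acts on antigen-presentation genes and CRX acts in photoreceptors. Another motif named p53(p53) was not among these 5. Its untreated differences by 3 h were -1.08 in head and -0.768 in foot tips, against -4.63 and -6.23 for the p53(p53) motif given above. TEAD(TEA) ranked 11th of 331.

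At the other end stood Elk4(ETS) at -0.942, ELF1(ETS) at -0.938 and ZNF41(Zf) at -0.937. Elk4(ETS) had its lowest mean score, -3.67, in untreated foot tips at 0 h, the group in which TEAD2(TEA) was highest. In all, 14 motifs had an r above 0.8 and 34 an r below -0.8, and the median r was -0.102. The 5 likest motifs depended on the groups used: 3 of the 5 were shared with Spearman's rho and 2 with the untreated score table. None was shared with the iCRT14 groups alone, where the p53(p53) motif from mES cMyc ChIP-seq ranked 17th.

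**Figure D5:**
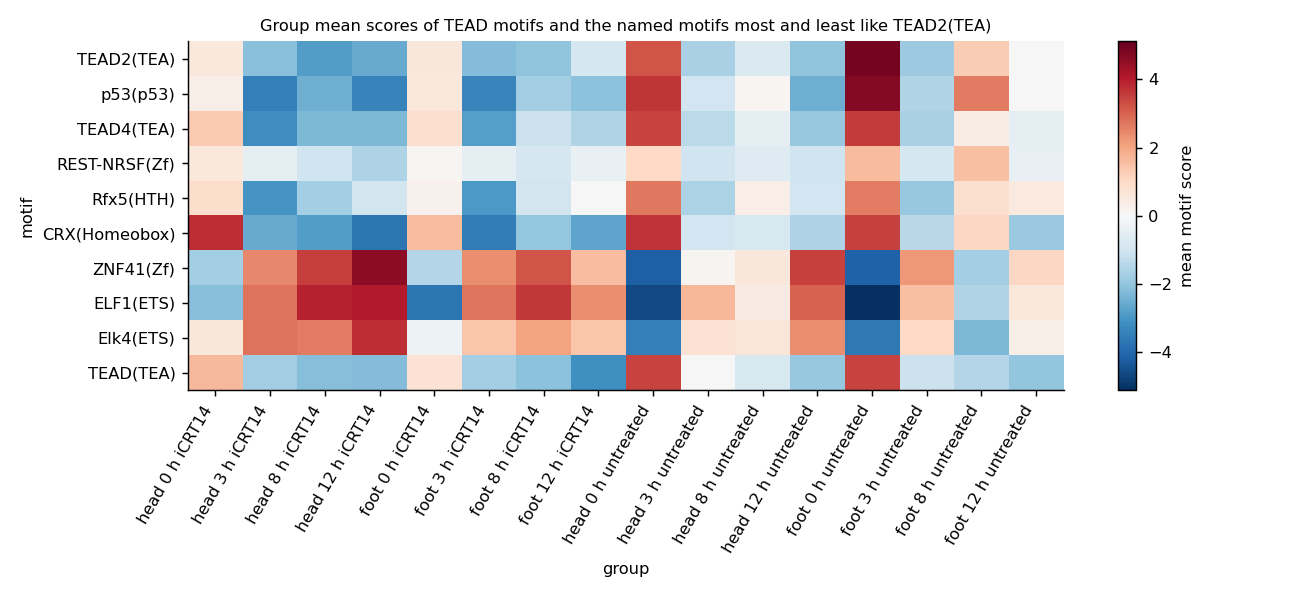
Mean motif score (colour, no unit) of the TEAD motifs and of the motifs most and least like TEAD2(TEA) by Pearson's r (y axis), in each of the 16 groups (x axis). TEAD2(TEA) is darkest red in untreated foot tips at 0 h, at 4.91, where Elk4(ETS) is at -3.67.

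Scores of the same 36 untreated libraries in the second table were lower by a median of 0.758 for TEAD2(TEA), 0.489 for TEAD4(TEA) and 0.437 for TEAD(TEA). Across those libraries Pearson's r between the tables, which share the reads, was 0.982, 0.980 and 0.993. In the second table head tips averaged, for TEAD2(TEA), 2.58 ± 0.628 (0 h), -2.92 ± 0.546 (3 h), -1.55 ± 0.492 (8 h) and -1.94 ± 0.228 (12 h). Foot tips averaged 4.49 ± 0.611, -2.59 ± 0.688, 0.415 ± 0.209 and -0.858 ± 0.346 in that order of times (SD, n = 5, 3, 5 and 5 on each side). The fall by 3 h, the partial return by 8 h in foot tips and the lower head scores at 0, 8 and 12 h were present in both tables. In the second table TEAD2(TEA) also rose from 3 to 8 h in head tips.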

How the data were processed

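ATAC-seq reads were processed by the authors with Trimmomatic 0.36, Bowtie2 2.2.6, Picard 2.17.8, SAMtools 1.2, deepTools 3.3.1 and DiffBind, per the submitters' processing notes. The motif scoring tool, the motif match threshold and the genome build are not given in the sources used here. The authors deposited a table of counts per library over 115968 peaks, used here for depth and to compare replicates. The authors also deposited 2 tables of motif deviation scores, 1 for all 71 libraries and 1 for the 36 untreated ones. A score above 0 is read as more accessibility over peaks with the motif than the average of the table's libraries, as such scores are usually defined. The scale of a score has no unit, so differences are given and no folds.

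The score of each motif was fitted with limma 3.58.1 in R 4.3.3, with 1 mean for each of the 16 groups, all motifs in 1 fit, two-sided tests and adjustment by Benjamini-Hochberg within a comparison. A call is an adjusted p below 0.05. The fit was tested on simulated scores with independent noise for each motif. These held no depth effect and no correlation between motifs, so the test does not cover either. Exact permutation tests used scipy 1.17.1. Named motifs were those with the TEA tag and the 5 with the highest and 3 with the lowest Pearson's r to TEAD2(TEA) over group means. The tag alone set the members, while the choice of this family and of the rule for named motifs was made with earlier results of these data known. The comparisons were set out for TEAD2(TEA), and those of TEAD4(TEA) and TEAD(TEA) were added when the tag was found on them as well.

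Libraries of the same number on the head and foot side deviated together, with every pair's r above 0.1 over all motifs, at 0 and 12 h untreated and at 0 h in iCRT14. Taking the number as a block changed no call in these 3 comparisons. Of 126 pairs of replicates, 0 were identical, and the lowest chi-square per degree of freedom of their counts was 2.13, so each library was counted once. Alternatives were a fit of the compared groups alone, the replicate block, scores centred and scaled per library, depth as a covariate, robust variance, the untreated score table and leaving out each library in turn. RNA-seq files were not used here, since their gene models could not be matched to names, and no motif or peak sequence was used here.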

Additional observations from a re-analysis of the deposited data

Results flagged for a closer look

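Within groups of 4 or 5 libraries, 42 sets of scores were checked for a library that stands apart, by the gap to its nearest neighbour over the whole range (Dixon's 95% value), and 2 were found, where chance gives about 1 in 20. TEAD4(TEA) scored -2.94 in iCRT14 head replicate 1 at 12 h, below -2.13, -2.07 and -2.03 in the other head libraries. TEAD(TEA) scored -3.34 in iCRT14 foot replicate 2 at 8 h, below -1.84, -1.64 and -1.59 in the other foot libraries.

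The change from 0 h differed between iCRT14 and untreated tips, by the limma test of that difference, in 12 of 18 tests, each time less negative in iCRT14. Of all motifs, 16.6% and 27.4% were called in that direction by 3 and 12 h in head tips, where 47.6% were called in either direction by 8 h, and 12.3%, 24.7% and 24.1% in that direction by 3, 8 and 12 h in foot tips. For TEAD2(TEA) the differences were 2.25 by 3 h and 2.16 by 12 h in head tips, and 3.97 and 3.46 in foot tips. In head tips TEAD4(TEA) gave 1.76 and TEAD(TEA) 1.46 by 12 h (limma adjusted p = 0.00353 and 0.0325). In foot tips TEAD4(TEA) gave 1.56, 1.24 and 1.66 by 3, 8 and 12 h (adjusted p = 0.0201, 0.0470 and 0.00714) and TEAD(TEA) gave 2.10, 2.12 and 1.57 (adjusted p = 0.00619, 0.00267 and 0.0248). The 0 h iCRT14 libraries enter all of these tests.

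Several of these calls ended on leaving out a single library, in some cases with a difference no smaller than in the main fit. In foot tips, leaving out iCRT14 replicate 3 of 0 h brought TEAD4(TEA) to 1.07, 0.749 and 1.17 by 3, 8 and 12 h and TEAD(TEA) to 1.14 by 12 h, and ended those 4 calls. The TEAD4(TEA) call by 3 h also ended without untreated foot replicate 3 of 3 h, at 1.23. The TEAD4(TEA) call by 8 h also ended without iCRT14 foot replicates 4 of 0 h or 1 or 3 of 8 h, or untreated foot replicates 1, 2 or 5 of 0 h or 1, 2, 3 or 5 of 8 h, at 1.02 to 1.29. The TEAD(TEA) call by 12 h also ended without untreated foot replicate 4 of 12 h, at 1.35. In head tips the TEAD(TEA) call by 12 h ended without iCRT14 replicates 3 or 4 of 0 h or 2 or 4 of 12 h, or untreated replicates 1 or 5 of 0 h or 4 of 12 h, at 1.13 to 1.42. With depth as a covariate TEAD4(TEA) gave 1.49 and 1.21 in foot tips by 3 and 8 h and TEAD(TEA) gave 1.64 by 3 h (adjusted p = 0.0623, 0.0594 and 0.0668). With scores scaled per library the foot calls of TEAD4(TEA) by 3, 8 and 12 h ended, at 0.930, 0.774 and 1.24 (adjusted p = 0.256, 0.303 and 0.0828), as did those of TEAD(TEA) by 8 and 12 h, at 1.43 and 1.19 (adjusted p = 0.0574 and 0.113). The TEAD4(TEA) foot call by 8 h also ended in a fit of its groups alone (adjusted p = 0.0624).

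The untreated change from 0 h to 12 h of TEAD4(TEA) differed between the sides, with head minus foot at -1.32 (limma adjusted p = 0.0369). It was -0.123 in the untreated score table (adjusted p = 0.882). The call also ended on leaving out 1 of 9 libraries, namely head replicates 1 or 4 or foot replicates 3 or 4 of 0 h, or head replicates 3 or 4 or foot replicates 1, 2 or 5 of 12 h, at -1.30 to -1.23.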

How the results depend on the processing

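Of 883 alternative fits for each motif, 841 for TEAD2(TEA), 808 for TEAD4(TEA) and 810 for TEAD(TEA) kept the direction and the side of the threshold. Most of these fits left out 1 library and so shared nearly all their data. A call ended in 4, 37 and 11 of those fits for TEAD2(TEA), TEAD4(TEA) and TEAD(TEA). It ended in 2, 17 and 6 of the other alternatives, in the same order. TEAD2(TEA) was called in 28 of 52 comparisons, TEAD4(TEA) in 31 and TEAD(TEA) in 22, and no called difference changed sign under the alternatives run. For TEAD2(TEA), the untreated score table gave 1.38 for head 8 h minus 3 h and -0.389 for head 12 h minus 8 h. For iCRT14 minus untreated in foot tips at 12 h a call was gained with the 2 groups alone, at the same -0.860, and with scaled scores, at -1.18, and depth as a covariate gave 1.71 for the treatment difference in the head change by 3 h. The 5 motifs likest to TEAD2(TEA) shared 3, 2 and 0 members under Spearman's rho, the untreated table and the iCRT14 groups alone.

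Differences that changed sign were not called on either side. With the replicate block they were -0.0786 for the TEAD2(TEA) step from 3 to 8 h in iCRT14 foot tips, -0.127 for its head minus foot at 3 h in iCRT14, -0.0627 for the side difference in its iCRT14 change by 3 h, 0.228 for TEAD(TEA) from 8 to 12 h in iCRT14 head tips and -0.0670 for the side difference in its iCRT14 change by 12 h. Scaled scores gave -0.000631 for the same TEAD2(TEA) step, 0.137 for the side difference in its iCRT14 effect at 3 h, 0.0981 for head minus foot of TEAD4(TEA) at 3 h in iCRT14, -0.0589 for the treatment difference in its head change by 8 h, and for TEAD(TEA) 0.243 from 8 to 12 h in iCRT14 head tips, 0.133 and 0.149 for head minus foot at 3 and 8 h in iCRT14 and 0.0243 for the treatment difference in its head change by 3 h. Depth as a covariate gave 0.0766 for head minus foot of TEAD2(TEA) at 0 h in iCRT14, and for TEAD(TEA) 0.224 in that iCRT14 head step, 0.0249 for head minus foot at 0 h untreated, and -0.0396 and -0.00454 for the side difference in the change by 12 h, in iCRT14 and untreated. The untreated table gave -0.333 for head minus foot of TEAD2(TEA) at 3 h, 0.837 for the side difference in its change by 12 h, and 0.129 and -0.107 for TEAD(TEA) in head minus foot at 0 h and in the change by 12 h. The cause was not tested.

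Leaving out single libraries, TEAD2(TEA) ran from 0.894 to 1.46 for foot 12 h minus 8 h in iCRT14, -0.154 to 0.411 for foot 8 h minus 3 h in iCRT14, 0.496 to 1.29 for head 8 h minus 3 h untreated, -1.07 to -0.759 and -0.693 to 0.141 for iCRT14 minus untreated in foot tips at 12 and 3 h, -0.191 to 0.685 for head minus foot at 3 h untreated, -0.432 to 0.205 and -0.400 to 0.508 at 0 and 3 h in iCRT14, -0.336 to 0.573 for the side difference in the iCRT14 change by 3 h and -0.601 to 0.317 for that in the iCRT14 effect at 3 h. TEAD4(TEA) ran from -0.122 to 0.309 for head 12 h minus 8 h in iCRT14, -0.0291 to 0.754 and -0.129 to 0.653 for head minus foot at 0 h in iCRT14 and 3 h untreated, and -0.00246 to 0.780 for the side difference in the untreated change by 3 h. TEAD(TEA) ran from -0.542 to 0.0398 and -0.725 to 0.00491 for foot 8 h minus 3 h in iCRT14 and untreated, -0.394 to 0.228 for head 12 h minus 8 h in iCRT14, -0.178 to 0.146 and -0.134 to 0.207 for head minus foot at 0 and 12 h untreated, -0.187 to 0.117 and -0.474 to 0.265 at 3 and 8 h in iCRT14, -0.322 to 0.430 and -0.100 to 0.260 for the side difference in the change by 12 h in iCRT14 and untreated, and -0.351 to 0.242 for the treatment difference in the head change by 3 h.

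Between same-numbered untreated head and foot libraries, r over all motifs ran from 0.0927 to 0.810 at 3 h and from -0.270 to 0.727 at 8 h. Some of these numbers may therefore pair libraries. Outside the 3 comparisons in which the numbers paired head and foot libraries, no comparison of 2 groups had every pair's r above 0.1. There the replicate block ended the calls of TEAD(TEA) for head 12 h minus 8 h untreated (-1.12) and iCRT14 minus untreated in head tips at 8 h (-1.36), and of TEAD4(TEA) for foot 12 h minus 8 h (-0.848), head minus foot at 8 h (-0.868), iCRT14 minus untreated in foot tips at 3 h (-1.08) and the treatment difference in the foot change by 8 h (1.24). It added calls of TEAD(TEA) for foot 12 h minus 8 h in iCRT14 (-0.974) and TEAD4(TEA) for head minus foot at 12 h in iCRT14 (-0.938). Where a group holds 3 libraries, as at 3 h untreated, the intervals are widest. Depth differed between times and between treatments, in neither case in 1 direction throughout, and its part in the results was not tested beyond the covariate.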
